A study of Mus musculus with 6 samples.

Results

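The endogenous opioid and endocannabinoid systems were examined through 10 genes, chosen by symbol from the 22000 rows of the count table: the opioid receptor genes Oprm1, Oprd1, Oprk1 and Oprl1, the peptide precursor genes Pdyn and Pnoc, the CB1 cannabinoid receptor gene Cnr1, and the endocannabinoid enzyme genes Dagla, Mgll and Faah. All 10 were found, 1 row each. RNA-seq had been carried out on the prefrontal cortex (PFC) of male C57BL/6N mice at 9 weeks of age, with 1 library per mouse and 3 mice per group. ELS mice (early life stress) were housed singly from weaning, and control mice were co-housed. No transgene or drug was used in either group. The cages of ELS mice also carried a filter cap and those of control mice did not, so that isolation and filter cap cannot be told apart. Behavior was assessed in the study before dissection, and whether the sequenced mice were among those assessed is not given in the sources used here. Both groups were drawn from littermates, and the labels do not say which mouse belonged to which litter.

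Opioid peptides are cut from larger precursors and act on receptors that couple to inhibitory Gi/o proteins, which lower cyclic AMP, open potassium channels and reduce transmitter release. Enkephalins and endorphin act mainly on the mu and delta receptors (Oprm1, Oprd1), dynorphins from Pdyn on the kappa receptor (Oprk1), and nociceptin from Pnoc on the nociceptin receptor (Oprl1). Endocannabinoids are lipids made on demand in the postsynaptic neuron: the diacylglycerol lipase encoded by Dagla makes 2-arachidonoylglycerol (2-AG), which travels back across the synapse to CB1 receptors on axon terminals. Monoacylglycerol lipase (Mgll) breaks 2-AG down, and fatty acid amide hydrolase (Faah) breaks down anandamide. In the cortex, CB1 is known to be dense on the terminals of a class of inhibitory interneurons that also make cholecystokinin.

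The coding stretch of mouse Pnoc that holds nociceptin (chr14:65404836-65404898 of GRCm38, minus strand) is shown because the first residues of nociceptin set it apart from the classical opioid peptides, which begin with Tyr. Capitals mark the 4 codons of its Phe-Gly-Gly-Phe start. The lower-case bases before them, and the last codons of the stretch, encode the basic residues at which the precursor is cut.
Pnoc: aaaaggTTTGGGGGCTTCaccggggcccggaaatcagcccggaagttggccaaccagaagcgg

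The receptor genes are paralogs, and the 60-base coding window below is the one, within a single exon, that the 4 genes share most. It is shown because reads of near-identical paralogs could be counted for the wrong gene. Capitals mark the 43 bases that are the same in all 4. The windows lie at chr10:6828885-6828944 (plus strand) for Oprm1, chr4:132117409-132117468 (minus strand) for Oprd1, chr1:5598590-5598649 (plus strand) for Oprk1 and chr2:181718377-181718436 (plus strand) for Oprl1.
Oprm1: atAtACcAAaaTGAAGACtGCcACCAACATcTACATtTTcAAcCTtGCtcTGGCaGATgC
Oprd1: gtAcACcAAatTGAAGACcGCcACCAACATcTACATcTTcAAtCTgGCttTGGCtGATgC
Oprk1: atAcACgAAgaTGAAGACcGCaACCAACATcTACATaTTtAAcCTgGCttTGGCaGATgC
Oprl1: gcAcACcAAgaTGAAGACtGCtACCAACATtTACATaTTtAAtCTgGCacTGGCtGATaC
Over the whole coding sequence, identity between receptor pairs ran from 59.1% (Oprm1 and Oprl1) to 65.2% (Oprm1 and Oprd1). The longest stretch without a mismatch between any pair was 25 bases, shared by Oprk1 and Oprl1, which is shorter than the sequenced reads.

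None of the 10 genes was called different between ELS and control mice. The kappa receptor gene Oprk1 was the one whose 3 ELS mice all lay above the 3 control mice, 1.24-fold higher on average, and the remaining 9 had groups that overlapped. Calls were made with edgeR's quasi-likelihood test across 13185 genes, at an adjusted p below 0.05 together with a log2 fold change beyond 0.3 in either direction. Of the 9 members that passed the filter on low counts, 0 were called, where the share over all genes tested was 0.0152%. At an unadjusted p below 0.05 the count was 1 of 9, Oprk1, which was higher in ELS mice. That count depended on the fit. It was 0 of 9 without control mouse 2, where 411 of 13231 genes passed that p. It was 2 of 9 (Oprk1 and Cnr1) without control mouse 1, where 550 of 13224 genes passed, and with a score of striatal markers as a covariate, where 949 of 13185 passed. Without control mouse 3 it was 4 of 10 (Oprm1, Oprd1, Oprk1 and Dagla), as Oprm1 then passed the filter, with 1544 of 13212 genes. The same 4 of 10 passed without control mouse 3 and ELS mouse 1, with 1157 of 13241 genes. In both fits Oprm1 passed the filter only through the control mice, the group where it was higher, as every ELS mouse lay below 1 CPM. Its place in these counts thus depends on the filter and is not read as a result. Of all genes 4.23% passed that p, 1.89% higher and 2.34% lower in ELS mice. The 1 of 9 whose groups did not overlap was read against 8.28% of all genes. DESeq2 called 0 of 9, against 0.137% of all genes, with 1 of 9 at an unadjusted p below 0.05, against 3.72%, and the edgeR likelihood ratio test 0 of 9, against 0.212%. The median log2 fold change of the 9 was 0.02, with 5 of 9 above 0, and that of all genes tested was -0.0046, with 47.5% above 0. With 3 mice per group an exact permutation test cannot give a p below 0.1. In bulk tissue, fewer cells of a type and less RNA per cell cannot be told apart.

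**Figure D1:**
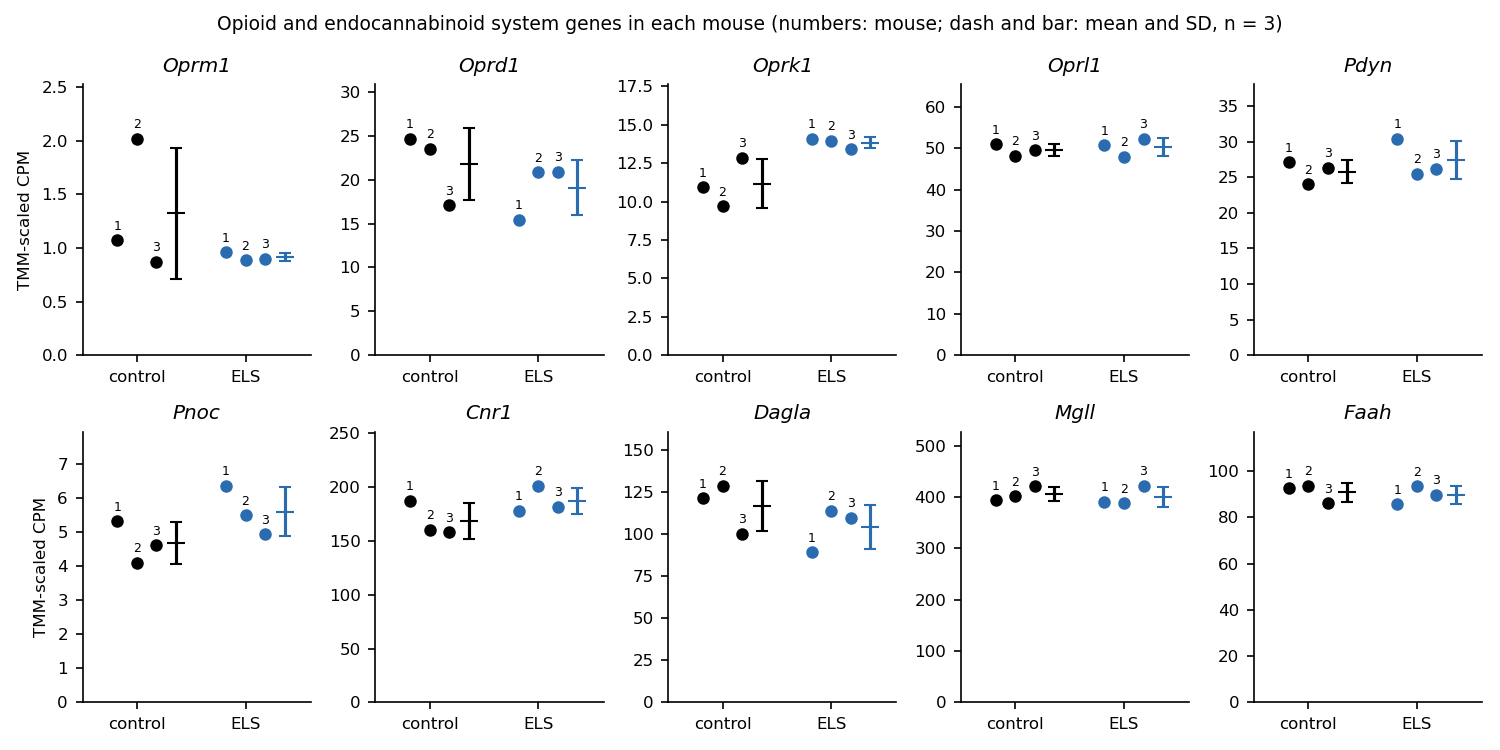
TMM-scaled CPM of the 10 genes in each of 3 control mice (black) and 3 ELS mice (blue), with mouse numbers above the points and the mean with its SD beside them. Oprk1 is the panel in which every ELS mouse, from 13.4 to 14.1 CPM, lies above every control mouse, from 9.70 to 12.9 CPM.

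Values by mouse are listed in the order of mice 1, 2 and 3 of each group, in CPM (counts scaled by library size with edgeR's TMM factors). Total counts ran from 28405795 to 35241743 per mouse, and each ELS library was deeper than each control library. Control mouse 3 and ELS mouse 1 stood apart, with higher levels, in most markers of striatal projection neurons, the main neurons of the tissue below the frontal cortex. Of 18 such markers 17 were in the table and none was at 0 in any mouse. Their summed level ran from 687 to 953 CPM in control mice and from 742 to 931 CPM in ELS mice. The mean log2 CPM of the 14 tested markers, the striatal score, was 4.36, 4.45 and 5.24 for control mice 1 to 3, against 5.27, 4.59 and 4.71 for ELS mice 1 to 3. The 2 mice lay 0.536 above the nearest of the other 4. Not all striatal markers shared this order. Adcy5 stood at 192.3 CPM in control mouse 3, below 193 CPM in control mouse 1. Scn4b stood at 137.7 CPM in ELS mouse 1, below 138.3 CPM in control mouse 2. Ido1, left out by the filter, stood at 1.23 CPM in ELS mouse 1, below 1.24 CPM in ELS mouse 3. The same 2 mice differed from the other 4 in further lists. The 12 markers of cortical pyramidal neurons, all present, summed to 5938 CPM in control mouse 3 and 5614 CPM in ELS mouse 1, below the 6346 to 6635 CPM of the others. Most of that sum came from Camk2a and Slc17a7, which were lowest in these 2 mice, as were Cux2 and Rorb among others, but not all markers shared this order, and Emx1 was highest there, at 25.85 and 24.3 CPM. Oligodendrocyte markers summed to 8227 and 7316 CPM in these 2 mice, against 6275 to 6915 CPM, and blood markers to 81.5 and 75.6 CPM, against 48.8 to 61.7 CPM. The share of each tissue component in the results below was not tested.

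Between genes, levels were compared as TMM-scaled CPM per kilobase of annotated exon. Mgll stood highest of the 10, at 79.3 ± 2.99 (SD over 6 mice), above 95.8% of the 12579 tested genes with a known length. Cnr1 followed with 27.6 ± 2.56 and Dagla with 19.2 ± 2.48 CPM per kilobase. The genes of the 2-AG cycle and its receptor thus took the first 3 places, and the receptor Oprl1 was next at 13.3 ± 0.454. Faah stood at 11.5 ± 0.458, Pdyn at 9.21 ± 0.745 and Oprd1 at 5.08 ± 0.891 CPM per kilobase. The lowest were Pnoc at 2.38 ± 0.361, Oprk1 at 1.37 ± 0.195 and Oprm1 at 0.139 ± 0.0556. The ranges over the 6 mice did not overlap between any neighbours in this order. With the length of the longest transcript in place of all exons, 4 genes changed place, as Faah passed Oprl1 (16.3 against 16.1) and Oprk1 passed Pnoc (2.67 against 2.38). The order within these pairs thus depends on the gene model.

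**Figure D2:**
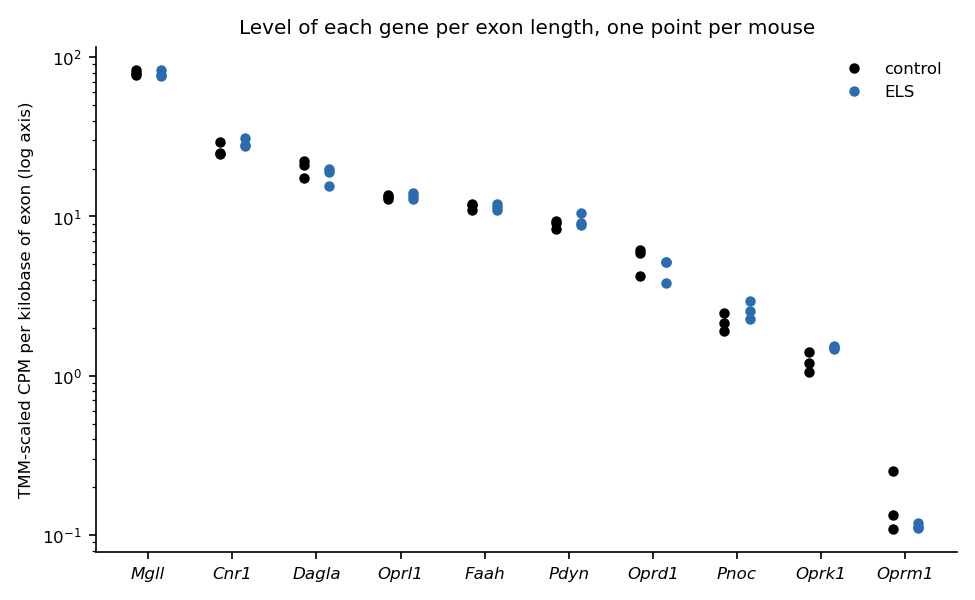
Level of the 10 genes as TMM-scaled CPM per kilobase of exon on a log axis, 1 point per mouse (black, control; blue, ELS), ordered by the mean over 6 mice. The range runs from Mgll near 79.3 to Oprm1 near 0.139, and the spread between mice is small beside the steps between most genes.

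Among the receptors, Oprm1 encodes the mu receptor, the main target of morphine. It spans chr10:6758506-7038198 of GRCm38 (plus strand), and 1.19% of its exon length overlaps Ipcef1 on the opposite strand. Control mice 1 to 3 gave 33, 57 and 25 counts, or 1.07, 2.02 and 0.873 CPM. ELS mice 1 to 3 gave 32, 31 and 29 counts, or 0.960, 0.887 and 0.899 CPM. Control mouse 2 stood above the other 5 mice, which overlapped. The gene did not reach 1 CPM in every mouse of either group and was left out by the filter. In a fit with all 17357 genes that had a read, its log2 fold change was -0.52 (95% interval -1.25 to 0.21, edgeR quasi-likelihood, adjusted p = 1). It was -0.09 without control mouse 2 and -0.75 without control mouse 3. The interval reaches from 0.42-fold to 1.15-fold of the control level.

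Oprd1 encodes the delta receptor, a receptor for enkephalins, and spans chr4:132110726-132144486 (minus strand). It stood at 24.7, 23.5 and 17.1 CPM in the control mice, against 15.4, 20.8 and 20.9 CPM in the ELS mice. The lowest values were those of control mouse 3 and ELS mouse 1, and the groups overlapped. The means were 21.8 ± 4.08 and 19.1 ± 3.14 CPM (SD, n = 3 each), and the log2 fold change was -0.19 (SE 0.14, 95% interval -0.51 to 0.12, edgeR quasi-likelihood, adjusted p = 1). Oprd1 had the largest spread of the 9 tested genes, with an SD within groups of 0.269 on the log2 scale, larger than that of 92.7% of all genes tested. Without control mouse 3 the log2 fold change became -0.34 (adjusted p = 0.262), without ELS mouse 1 it became -0.06 (adjusted p = 1), and without both, a choice made after seeing the data, -0.21 (adjusted p = 0.538). It was -0.09 without control mouse 1, -0.13 without control mouse 2, -0.27 without ELS mouse 2 and -0.26 without ELS mouse 3.

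Oprk1 encodes the kappa receptor, on which dynorphins act, and spans chr1:5588466-5606131 (plus strand). It stood at 10.9, 9.70 and 12.9 CPM in the control mice, against 14.1, 13.96 and 13.4 CPM in the ELS mice. Every ELS mouse was above every control mouse, which was so, in this direction, for 3.81% of all genes tested. The gap from the highest control mouse to the lowest ELS mouse was small beside the spread between control mice. The means were 11.2 ± 1.59 and 13.8 ± 0.352 CPM (SD, n = 3 each). The log2 fold change of 0.31 (SE 0.11, 95% interval 0.07 to 0.55) had an unadjusted p of 0.0169 and an adjusted p of 1 in edgeR's quasi-likelihood test, so it did not pass the correction. It was 0.22 without control mouse 2 (unadjusted p = 0.0775, adjusted p = 1), 0.42 without control mouse 3 (adjusted p = 0.175) and 0.41 without control mouse 3 and ELS mouse 1 (adjusted p = 0.275).

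Kappa receptor RNA is known to be rich in the claustrum and endopiriform area, next to the frontal cortex. The 5 markers of that area were all in the table and 4 were tested, and none was at 0. Their summed level was 125, 124 and 108 CPM in the control mice, against 124, 130 and 123 CPM in the ELS mice. Their median log2 fold change was 0.09, and 0 of 4 was called. The 4 did not move together, with log2 fold changes of 0.23 for Gnb4 (unadjusted p = 0.0113, adjusted p = 0.97), 0.17 for Ntng2, 0.0064 for Lxn and -0.24 for Nr4a2 (adjusted p = 1 for each of these 3 in the same test). The part of this tissue in the Oprk1 difference was not tested.

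Oprl1, the nociceptin receptor gene, spans chr2:181715016-181720985 (plus strand). Its level was the steadiest of the 9 tested genes, at 51.1, 48.3 and 49.6 CPM in the control mice, against 50.8, 48.0 and 52.4 CPM in the ELS mice. The groups lay over each other, with a log2 fold change of 0.02 (SE 0.07, 95% interval -0.13 to 0.17, edgeR quasi-likelihood, adjusted p = 1). The interval holds differences of at most 1.12-fold up and 0.916-fold down.

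Of the peptide precursors, Pdyn spans chr2:129686565-129699844 (minus strand). It stood at 27.1, 24.0 and 26.3 CPM in the control mice, against 30.4, 25.5 and 26.2 CPM in the ELS mice. ELS mouse 1 was the highest, and the other ELS mice lay within the control range. The log2 fold change was 0.08 (SE 0.09, 95% interval -0.11 to 0.28, edgeR quasi-likelihood, adjusted p = 1), and without ELS mouse 1 it was 4.49e-05. Pnoc spans chr14:65400673-65425472 (minus strand) and stood at 5.33, 4.11 and 4.61 CPM in the control mice, against 6.36, 5.49 and 4.93 CPM in the ELS mice. The groups overlapped through control mouse 1, and the log2 fold change of 0.25 (SE 0.16, 95% interval -0.09 to 0.60, edgeR quasi-likelihood, adjusted p = 1) had an interval that held 0. It was 0.15 without ELS mouse 1, 0.17 without control mouse 2 and 0.36 without control mouse 1. Markers of interneurons, cells that are known to make nociceptin in cortex, had summed levels from 1170 to 1258 CPM in control mice and from 1197 to 1268 CPM in ELS mice over the 15 of 16 in the table. These markers did not move together, with log2 fold changes from -0.19 (Lhx6) to 0.35 (Htr3a) and 9 of 15 above 0. None was called, and 1 of 15, Adarb2, had an unadjusted p below 0.05 (0.049, edgeR quasi-likelihood), against 4.23% of all genes tested.

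In the endocannabinoid system, Cnr1 spans chr4:33924593-33948831 (plus strand). It stood at 188, 160 and 158 CPM in the control mice, against 178, 201 and 182 CPM in the ELS mice. Control mouse 1 lay above ELS mice 1 and 3, and the other control mice lay below all ELS mice. The means were 169 ± 16.5 and 187 ± 12.4 CPM (SD, n = 3 each), and the log2 fold change was 0.15 (SE 0.08, 95% interval -0.03 to 0.33, edgeR quasi-likelihood, adjusted p = 1). It ran from 0.0911 without ELS mouse 2 to 0.23 without control mouse 1 (unadjusted p = 0.34 and 0.0136, adjusted p = 1 and 0.999), and with the striatal score as a covariate it was 0.18 (unadjusted p = 0.00504, adjusted p = 0.334).

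Dagla, the 2-AG synthesis gene, spans chr19:10245265-10304877 (minus strand) and stood at 121, 128 and 100.1 CPM in the control mice, against 89.0, 114 and 110 CPM in the ELS mice. As for Oprd1, the lowest values were those of control mouse 3 and ELS mouse 1. The log2 fold change was -0.16 (SE 0.11, 95% interval -0.39 to 0.07, edgeR quasi-likelihood, adjusted p = 1). It became -0.26 without control mouse 3 (adjusted p = 0.261), -0.06 without ELS mouse 1 (adjusted p = 1) and -0.16 without both (adjusted p = 0.473). Without control mouse 1 it was -0.13, without control mouse 2 -0.09, without ELS mouse 2 -0.23 and without ELS mouse 3 -0.20.

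The genes of the degrading enzymes varied little between mice. Mgll spans chr6:88724412-88828360 (plus strand), with 3.29% of its exon length overlapped by the antisense gene Gm26588, and stood at 394, 401 and 421 CPM in the control mice, against 391, 388 and 422 CPM in the ELS mice. Its log2 fold change was -0.02 (SE 0.07, 95% interval -0.16 to 0.12, edgeR quasi-likelihood, adjusted p = 1). Faah spans chr4:115967145-116017926 (minus strand) and stood at 92.7, 93.5 and 86.2 CPM in the control mice, against 85.7, 93.4 and 89.7 CPM in the ELS mice. Its log2 fold change was -0.02 (SE 0.07, 95% interval -0.16 to 0.13, edgeR quasi-likelihood, adjusted p = 1). For both enzymes the groups lay over each other, and the intervals hold differences of at most 1.09-fold up and 0.892-fold down.

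**Figure D3:**
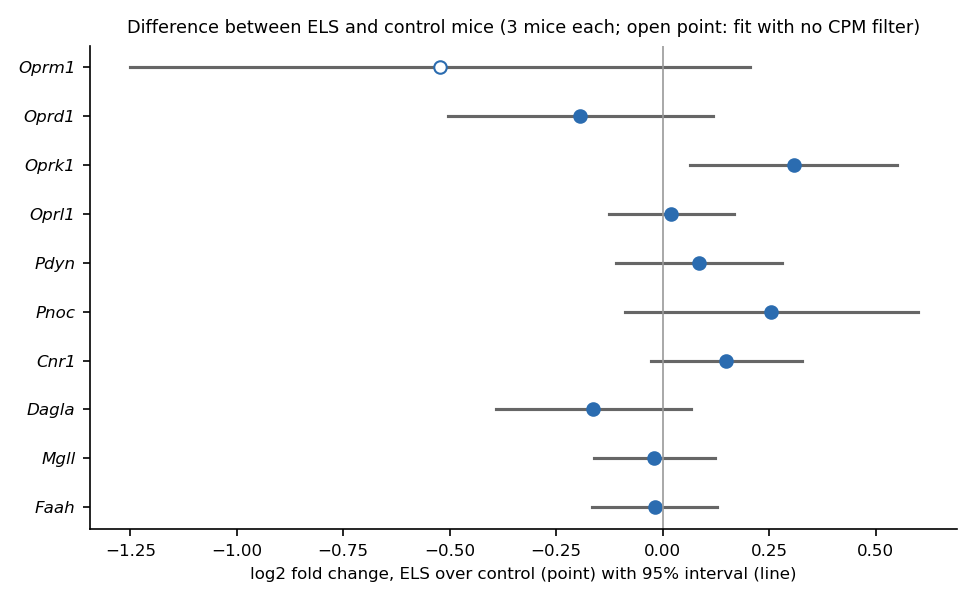
Log2 fold change of ELS over control mice (points) with 95% intervals from edgeR's quasi-likelihood fit (lines) for the 10 genes, with Oprm1 from the fit without a CPM filter (open point). The Oprk1 interval, from 0.07 to 0.55, is the one that lies to 1 side of 0, and those of Oprl1, Mgll and Faah are the narrowest.

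Ratios between members do not depend on how libraries are scaled, and 5 were compared as log2 of counts per kilobase with an exact two-sided permutation test over mice. Pdyn to Oprk1, peptide to receptor, was 2.972, 2.971 and 2.699 in the control mice, against 2.77, 2.53 and 2.63 in the ELS mice, a difference of -0.23 (exact p = 0.2, adjusted p = 0.333 over the 5 ratios). Pnoc to Oprl1 was -2.46, -2.76 and -2.63 in the control mice, against -2.20, -2.33 and -2.61 in the ELS mice, a difference of 0.24 (exact p = 0.2, adjusted p = 0.333). The groups overlapped in both. Pdyn to Pnoc differed by -0.17 (exact p = 0.2, adjusted p = 0.333), Dagla to Mgll, synthesis to breakdown of 2-AG, by -0.14 (exact p = 0.5, adjusted p = 0.5), and Oprm1 to Oprd1 by -0.25 (exact p = 0.5, adjusted p = 0.5). With 1 mouse left out, Dagla to Mgll ran from -0.276 (without control mouse 3) to -0.0505 (without ELS mouse 1), and was -0.0909 and -0.0615 without control mouse 1 or 2 and -0.233 without ELS mouse 2. Pnoc to Oprl1 ran from 0.146 (without ELS mouse 1) to 0.352 (without ELS mouse 3), and Oprm1 to Oprd1 from -0.449 (without control mouse 1) to 0.0416 (without control mouse 2). On the linear scale, Dagla per kilobase was 0.253 of Mgll in the control group and 0.229 in the ELS group, and Oprm1 was 0.0288 and 0.0242 of Oprd1.

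Oprd1, Dagla and Faah had their lowest levels in the 2 mice with the highest striatal score. The share of all genes tested that did so was not counted. Ordered by rising score, from control mouse 1 and 2 through ELS mouse 2 and 3 to control mouse 3 and ELS mouse 1, Oprd1 had 24.7, 23.5, 20.8, 20.9, 17.1 and 15.4 CPM. Dagla had 121, 128, 114, 110, 100.1 and 89.0 CPM in the same order. Faah had its lowest values, 86.2 and 85.7 CPM, in the same pair of mice, where Oprk1 had 12.9 and 14.1 CPM and Pdyn 26.3 and 30.4 CPM. As the mice fell into separate clusters of 4 and 2 by the score, no correlation over all 6 was taken. With the score as a covariate in edgeR's quasi-likelihood fit, the log2 fold change of Oprd1 was -0.08 (adjusted p = 0.944), that of Dagla -0.09 (adjusted p = 0.825) and that of Oprk1 0.27 (adjusted p = 0.492). The score mainly sets control mouse 3 and ELS mouse 1 apart, which also had the lowest pyramidal marker sums. The part of striatal tissue in these differences was not tested.

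**Figure D4:**
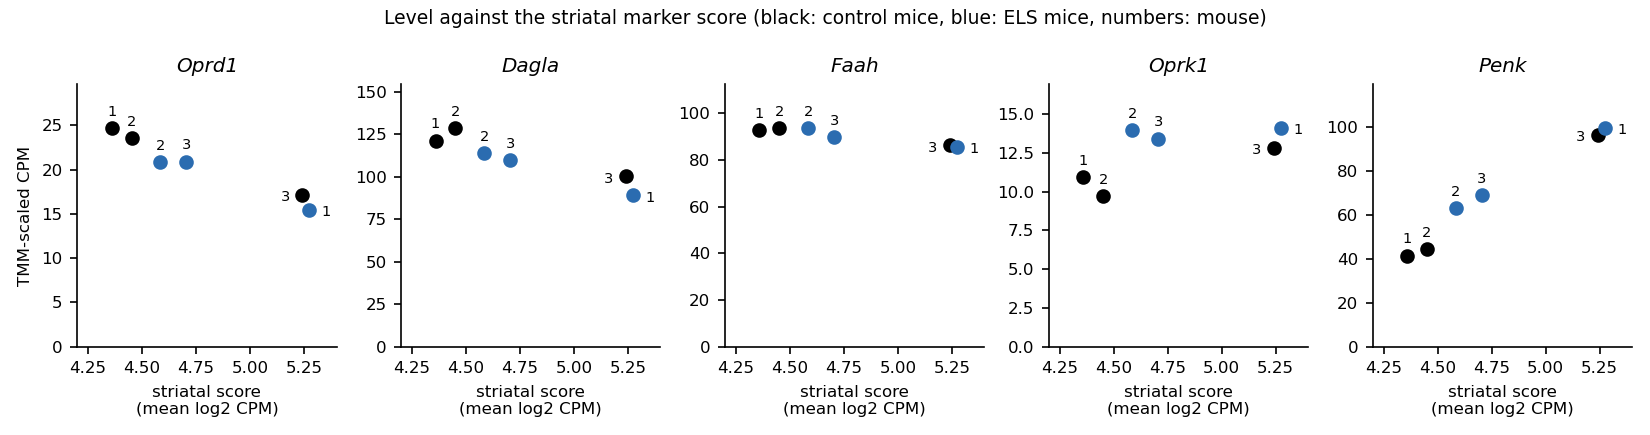
TMM-scaled CPM of Oprd1, Dagla, Faah, Oprk1 and the enkephalin precursor gene Penk against the striatal score, the mean log2 CPM of 14 striatal marker genes, with 1 numbered point per mouse (black, control; blue, ELS). Control mouse 3 and ELS mouse 1 lie to the right at 5.24 and 5.27, where Oprd1 and Dagla are lowest and Penk is highest.

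Other genes of the 2 systems were counted in lists. Of 12 opioid partners (the precursor genes Penk and Pomc, processing enzymes and the inhibitor gene Pcsk1n, peptidases, and Ogfr and Ogfrl1, the opioid growth factor receptor gene and its homolog), 12 were tested and 0 called, with a median log2 fold change of 0.0075. Of 16 endocannabinoid partners, 13 were tested and 0 called, with a median of 0.0018, and of 12 Gi/o signalling partners 12 were tested and 0 called, with a median of -0.011. DESeq2 and the likelihood ratio test called 0 in each list as well. An unadjusted p below 0.05 was reached by 1 of the 13 endocannabinoid partners and by 0 of 12 in each of the other lists, against 4.23% of all genes tested. That gene was Ptgs2, encoding the cyclooxygenase that can oxidize endocannabinoids, which is also known as an activity-induced gene. It stood at 19.7, 15.9 and 15.8 CPM in the control mice, against 15.8, 13.2 and 11.8 CPM in the ELS mice, with a log2 fold change of -0.33 (SE 0.12, unadjusted p = 0.0192, edgeR quasi-likelihood, adjusted p = 1). Control mouse 3 and ELS mouse 1 had nearly the same value, so the groups overlapped by a small margin.

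Abhd6, which encodes a further 2-AG hydrolase, stood at 61.9, 61.6 and 70.4 CPM in the control mice, against 59.2, 57.4 and 59.6 CPM in the ELS mice. The groups did not overlap, as for 4.47% of all genes in this direction, and the log2 fold change was -0.14 (SE 0.07, edgeR quasi-likelihood, adjusted p = 1). In the Gi/o list, the smallest p belonged to the receptor kinase gene Grk2 and the G protein gene Gnai1, with log2 fold changes of -0.0998 and 0.077 (adjusted p = 1 for both). Cnr2, Gpr55 and Trpv1, which encode further receptors for cannabinoid lipids, stayed under the filter, with group means of at most 0.169 CPM.

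Penk, the enkephalin precursor gene, which is highly expressed by striatal neurons, stood at 41.4, 44.2 and 96.4 CPM in the control mice, against 99.3, 62.9 and 68.9 CPM in the ELS mice. Its log2 fold change was 0.34 (SE 0.26, 95% interval -0.23 to 0.92, edgeR quasi-likelihood, adjusted p = 1). The highest values were those of control mouse 3 and ELS mouse 1, and the groups overlapped through control mouse 3. Without control mouse 3 the log2 fold change of Penk was 0.85 (adjusted p = 0.0206), and without control mouse 3 and ELS mouse 1 it was 0.62 (adjusted p = 5.1e-04). In these remaining 4 mice the striatal score was also higher in the ELS mice, 4.59 and 4.71, than in the control mice, 4.36 and 4.45, and its part in the Penk difference between them was not tested. With the striatal score as a covariate over all mice, Penk was not called, nor was any other partner. Pomc, the endorphin precursor gene, stood at 1.36, 1.70 and 1.61 CPM in the control mice, against 0.840, 1.602 and 1.799 CPM in the ELS mice, with a log2 fold change of -0.14 (SE 0.28, adjusted p = 1). Anpep, an aminopeptidase gene whose product can degrade enkephalins, stood at 5.36, 3.86 and 3.21 CPM in the control mice, against 4.47, 5.55 and 5.67 CPM in the ELS mice. Its log2 fold change was 0.33 (SE 0.19, adjusted p = 1), and the groups overlapped.

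For the 3 of the 9 tested members that varied most over the 6 mice (Oprm1, not tested, was left out), the genes with the most similar log2 CPM were looked up among all genes tested. The patterns nearest to Oprd1 were those of Ryr2 (Pearson r = 0.996), Tmem104 (r = 0.996) and Trio (r = 0.994), each over 6 mice. Ryr2 stood at 186, 187 and 131 CPM in the control mice, against 118, 163 and 161 CPM in the ELS mice, with control mouse 3 and ELS mouse 1 lowest, as for Oprd1. Nearest to Oprk1 were Tbata (r = 0.993), Ube2r2 (r = 0.993) and Sncaip (r = 0.987), and nearest to Pnoc were Egfem1 (r = 0.992), Npsr1 (r = 0.992) and Zic1 (r = 0.988). Zic1 stood at 16.9, 12.2 and 13.1 CPM in the control mice, against 20.6, 17.3 and 15.4 CPM in the ELS mice. These are the highest values over all genes tested, each over only 6 libraries with control mouse 3 and ELS mouse 1 apart, and are given as a description.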

How the data were processed

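PFC RNA was sequenced with a TruSeq stranded kit per the labels and a KAPA kit per the paper. The authors trimmed the reads, aligned them to mm10 with STAR, and had HTSeq count those that mapped uniquely (2.7.1a and 0.9.1 in the submitters' processing notes, while the paper names another STAR version). The deposited values are raw counts per gene. Annotation release and strand setting are not given in the sources used here. ELS columns carry an abbreviation of social isolation and were assigned by that term and their number.

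The filter asked for 1 CPM or more in every mouse of either group, and 13185 genes were tested in R 4.3.3 with edgeR 4.0.16 (TMM, quasi-likelihood, condition as the only term), with Benjamini-Hochberg adjustment over them and the call thresholds of the paper. DESeq2 1.42.0 and limma 3.58.1 were alternatives. SEs and intervals come from the F statistic. Positions, lengths and coding sequences come from GENCODE M21 on GRCm38, the assembly also called mm10, which held 89.2% of the symbols, aligned with MAFFT 7.526. Mice of a group differed by more than counting noise (chi-square per degree of freedom 6.7 or more).

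The members and lists were chosen with earlier results of these data known. Named were all members, Penk, Pomc, the 2 partners of each list with the smallest p, and the 3 genes most like each of the 3 most variable of the 9 tested members. The claustrum, pyramidal, interneuron and striatal markers and the receptors under the filter were named after their values were seen. The coding stretch of 1 precursor is not reported here. Planned correlations with the striatal score were dropped, since the mice fell into clusters. Marker lists had 0 called genes, and their median log2 fold changes were 0.11 (striatal projection neurons), 0.0063 (interneurons), -0.047 (pyramidal neurons), 0.087 (claustrum and endopiriform), -0.086 (thalamus), -0.016 (astrocytes), -0.012 (oligodendrocytes), 0.017 (microglia), 0.11 (endothelium), 0.43 (choroid plexus, 2 genes tested) and -0.11 (blood).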

Additional observations from a re-analysis of the deposited data

How the results depend on the processing

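No member was called in any of the alternatives: DESeq2 and its size factors, likelihood ratio, limma-voom, upper-quartile factors, no CPM filter, filterByExpr, a replicate block, a striatal covariate, no fold threshold, an adjusted p below 0.1, or 1 mouse left out. Log2 fold changes kept their direction except those near 0. Oprl1 ran from -0.00855 to 0.0516, Mgll from -0.0597 to 0.00707 and Faah from -0.0564 to 0.0104 with a mouse left out, Faah was 0.00573 with the striatal covariate, and Mgll was 0.0277 without control mouse 3 and ELS mouse 1, a setting chosen after seeing the data. The ratio of Oprm1 to Oprd1 ran from -0.449 to 0.0416 over the fits that each dropped 1 mouse. The log2 fold change of Oprk1 ran from 0.218 to 0.419 and its adjusted p from 0.175 to 1 over all alternatives. Over all genes tested, 2 were called, against 18 with DESeq2, 28 by likelihood ratio, 4 with no CPM filter, 7 with the replicate block, 29 with the striatal covariate, 27 without control mouse 3 and ELS mouse 1, and 1 to 29 with a mouse left out (29 without control mouse 3). The cause was not tested. Of the partners, 0 or 1 was called with a mouse left out, and 1 without control mouse 3 and ELS mouse 1, which was Penk both times. In the other alternatives, the striatal covariate among them, 0 partners were called. Same-numbered mice had deviations correlated at -0.123, 0.213 and -0.0312, and 2 of 6 mice lay nearest to their own number, so the numbers were not taken to pair the mice. The replicate block called 0 members and left Oprk1 at 0.315 (adjusted p = 0.954). Oprm1 rests on 25 to 57 counts per mouse and on control mouse 2, without which its log2 fold change was -0.0914.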
